A study of Homo sapiens with 6 samples.

Results

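The AP-1 family comprises the genes of the Fos proteins (FOS, FOSB, FOSL1 and FOSL2), of the Jun proteins (JUN, JUNB and JUND) and ATF3, and its 8 genes were taken by name from the 20851 genes measured by RNA-seq in A375 cells. All 8 were listed and all 8 had enough counts to be tested, among 14443 genes tested. A375 is a human melanoma line that carries an activating mutation of the kinase BRAF, and RIPK4 is a receptor-interacting protein kinase. The sublines A375RIPK4.KO and A375neg were compared (3 libraries each, 6 in all). A375RIPK4.KO cells (clone #1) carry a CRISPR/Cas9 knockout of RIPK4. A375neg cells received a guide RNA that targets no human gene and are labelled as a GFP control. The guides were delivered by lentivirus into the same parental line, and no drug or time course is given. The knockout is represented by 1 clone, so an effect of the clone cannot be told apart from that of the knockout. The sample titles name GFP for the control alone, so an effect of GFP cannot be told apart from that of the knockout either. The libraries are described as independent biological replicates. How their cultures were separated is not specified, and p-values measure the spread between these libraries.

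AP-1 is a dimer of basic leucine zipper (bZIP) proteins. Jun proteins pair with each other or with a Fos partner, whereas Fos proteins need a Jun partner to bind DNA, and the dimers bind the TRE (TGACTCA) or, with ATF partners, the CRE (TGACGTCA). Fos and Jun genes are classical targets of MAPK signalling: ERK acts on FOS and FOSL1, and the JUN N-terminal kinases act on the JUN protein. In melanoma, AP-1 is known for its link with invasive and dedifferentiated states. The comparison asks which genes of this family differed in mRNA level between the knockout and its control.

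Only 3 of the 8 AP-1 genes changed, and not in the same direction. JUN, the founding Jun gene, was 2.19-fold higher in A375RIPK4.KO cells. FOS, the classical serum-induced Fos gene, was 1.83-fold lower, and ATF3, a stress-induced bZIP factor that often represses its targets, was 2.35-fold lower. A gene is said to have changed, risen or fallen when its adjusted p was under 0.05 (quasi-likelihood test of edgeR, with Benjamini-Hochberg adjustment across every tested gene). By this measure 37.5% of the members changed, beside 16.6% of all genes tested. All 3 also differed by at least 1.5-fold, as did 9.04% of all genes tested. FOSB, FOSL1, FOSL2, JUNB and JUND did not pass.

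Promoter sequences are shown for JUN, FOS and ATF3, the members that changed. Each is the 150 bases upstream of a RefSeq transcript start (GRCh38.p14), read 5′ to 3′ on the strand of the gene, at chr1:58784048-58784197 for JUN (minus strand), chr14:75278678-75278827 for FOS (plus strand) and chr1:212565257-212565406 for ATF3 (plus strand). Capitals mark the letters TGACATCA (a TRE variant), TGACG (the core of a CRE) and TATAAA (a site where the basal machinery can bind), searched on both strands.
JUN: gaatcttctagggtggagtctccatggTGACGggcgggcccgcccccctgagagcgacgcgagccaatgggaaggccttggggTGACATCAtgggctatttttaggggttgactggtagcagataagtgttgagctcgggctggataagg
FOS: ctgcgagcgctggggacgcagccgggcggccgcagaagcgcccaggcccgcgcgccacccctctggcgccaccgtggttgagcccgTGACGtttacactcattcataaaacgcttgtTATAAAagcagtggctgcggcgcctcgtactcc
ATF3: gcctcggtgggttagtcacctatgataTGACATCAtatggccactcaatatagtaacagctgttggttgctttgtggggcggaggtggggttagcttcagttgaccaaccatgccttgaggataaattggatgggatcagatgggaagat
The JUN sequence holds TGACATCA 67 bases upstream of the start and TGACG 123 bases upstream. The FOS sequence holds TGACG at 64 bases and TATAAA at 33 bases. The ATF3 sequence holds TGACATCA at 123 bases. ATF3 has 2 promoter entries in RefSeq, and gene counts do not tell which start was used. Promoter entries were matched for 7 of the 8 members, without FOSL1.

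Among 35116 promoter windows of 300 bases (250 before and 50 after the start, either strand), TGACATCA occurs in 2.61%, TGACG in 24.6% and TATAAA in 11.5%. TGACG is common, and any TGACGTCA holds it. It lies in the windows of FOS, FOSB, FOSL2, JUN, JUNB and JUND, so it did not separate the members that changed from those that did not. TATAAA lies in the windows of FOS, FOSB and JUNB and in the other ATF3 entry. The full TRE, TGACTCA, occurs in 4.95% of all windows and, among the members, in FOSL2, and the full CRE, TGACGTCA, occurs in 1.85% and, among the members, in JUND. The CArG box that serum response factor binds occurs in 1.29% of the windows, and no member's window matched it. Bases more than 250 upstream of a start were not searched, so a CArG box there would have been missed, for FOS as well. A match is a description of the letters and not of binding.

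The libraries held between 21882863 and 26694140 counts, and 3 counts, the most that a count of 0 allows, correspond to 0.113 to 0.134 CPM (counts scaled to the library size) by counting error alone. RIPK4 was lower in each A375RIPK4.KO library (42, 51 and 61 counts) than in the A375neg libraries (319, 368 and 404 counts). A375RIPK4.KO replicate 2 stood apart on the second principal component (14.9% of the variance), and the counts of calls without it are given for each list. Without it, 2952 of 14931 genes tested changed. Over all genes tested, 1213 rose and 1190 fell, with a median log2 fold change of 0. The melanocytic regulators SOX10 (7448 to 10056 counts) and MITF (288 to 535 counts) were detected in all libraries, whereas the pigment gene PMEL reached at most 22 counts. TYR, DCT and MLANA were not listed among the 20851 genes. Of the 4 melanocytic markers tested, 2 fell (50%, beside 16.6% of all genes tested). MITF was at -0.44 (adjusted p = 0.0449, edgeR) and S100B at -0.89 (adjusted p = 0.0360, edgeR) on the log2 scale. The summed CPM of the 6 melanocytic markers measured of 9 was 385 to 417 in A375neg and 333 to 349 in A375RIPK4.KO libraries. That of 3 of 6 keratinocyte markers was 71.5 to 75.2 and 53.3 to 66.2, that of 4 of 5 leukocyte markers 1.80 to 2.24 and 0.425 to 1.20, and that of 4 of 4 endothelial markers 2.24 to 2.37 and 0.846 to 1.12. The defining leukocyte marker PTPRC had 0 to 3 counts. LYZ, the 1 leukocyte marker with enough counts to be tested, had 38, 36 and 37 counts in A375neg libraries. In A375RIPK4.KO libraries it had 13, 0 and 3 (log2 fold change -2.62, adjusted p = 0.0382, edgeR). All 4 sums were lower in A375RIPK4.KO cells, and their part in the AP-1 differences was not tested.

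JUN (chr1:58780791-58784047, minus strand, GRCh38) had 920, 1001 and 932 raw counts in the A375neg libraries and 1760, 1938 and 2000 in the A375RIPK4.KO libraries. Every knockout library lay far above every control library. After TMM normalisation, which scales counts to a common library size, JUN rose from 908.4 ± 21.7 to 1992 ± 58.7 normalised counts (mean ± SD, n = 3 each). The log2 fold change was 1.13 with a standard error (SE) of 0.06 and an adjusted p of 4.79e-06 (edgeR). With any 1 library left out it ranged from 1.11 to 1.16, and without A375RIPK4.KO replicate 2 it was 1.13 (adjusted p = 7.68e-07, edgeR). The size of its change lay at percentile 93.6 of all genes tested. In bulk RNA, a higher level per cell cannot be told apart from more cells that express the gene.

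**Figure D1:**
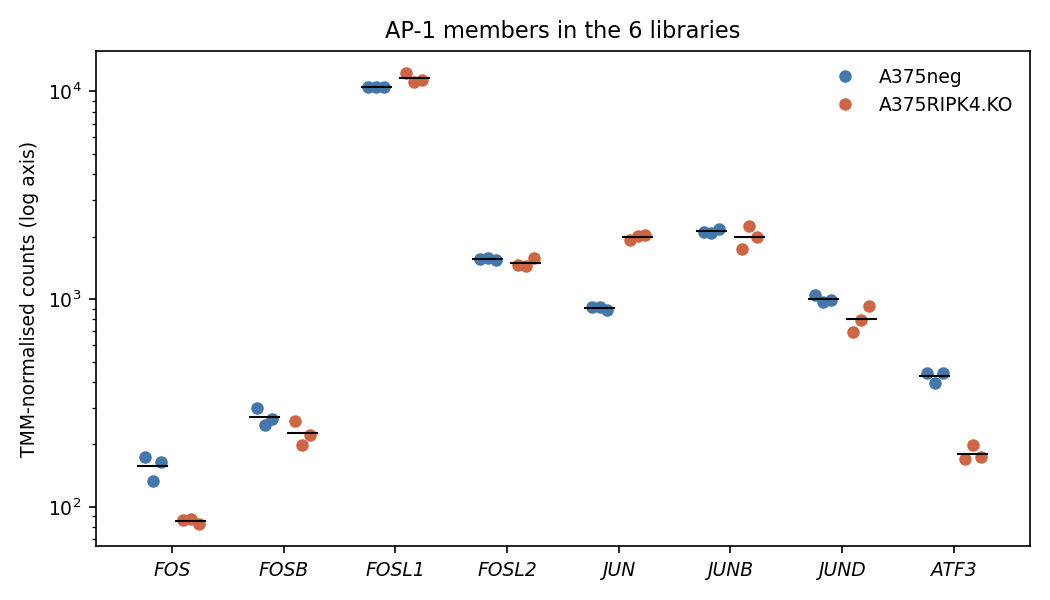
TMM-normalised counts (log axis) of the 8 AP-1 genes, with 1 point per library and a bar at the mean of the 3 libraries, in A375neg (blue) and A375RIPK4.KO (orange). JUN lies higher, and FOS and ATF3 lie lower, in every A375RIPK4.KO library, whereas the groups overlap for FOSB, FOSL2 and JUNB.

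JUNB and JUND, the other two Jun genes, did not share this rise. JUNB (chr19:12791486-12793315, plus strand), a Jun protein of weaker activating capacity, had 2101, 2256 and 2303 raw counts in A375neg and 1592, 2166 and 1973 in A375RIPK4.KO libraries. Once normalised, the knockout libraries spanned 1740 to 2261 and enclosed the controls, which spanned 2078 to 2183. The overlap came from A375RIPK4.KO replicate 2, the highest library, and the others (1740 and 2000) lay below every control. The log2 fold change was -0.08 (SE 0.09, adjusted p = 0.586, edgeR). Without A375RIPK4.KO replicate 2 it was -0.18 (adjusted p = 0.0911, edgeR), and without A375RIPK4.KO replicate 1 it was 0.009, so its sign and size rested on single libraries. The JUNB gene overlaps HOOK2, which lies on the opposite strand, and the strand setting used in counting is not given in the sources used here, so reads in the overlap may have been lost or shared.

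JUND (chr19:18279694-18281622, minus strand), the Jun gene that is usually expressed constitutively and can restrain growth, had 1049, 1055 and 1046 raw counts in A375neg and 633, 762 and 914 in A375RIPK4.KO libraries. The groups did not overlap, but the knockout libraries were widely spread. Normalised counts were 1004 ± 40.0 and 804.7 ± 118 (SD, n = 3 each), with a log2 fold change of -0.32 (SE 0.10, adjusted p = 0.0701, edgeR). JUND passed the test only without A375RIPK4.KO replicate 3, at -0.43 and an adjusted p of 0.0237 (edgeR). The replicate left out was the knockout library closest to the controls.

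**Figure D2:**
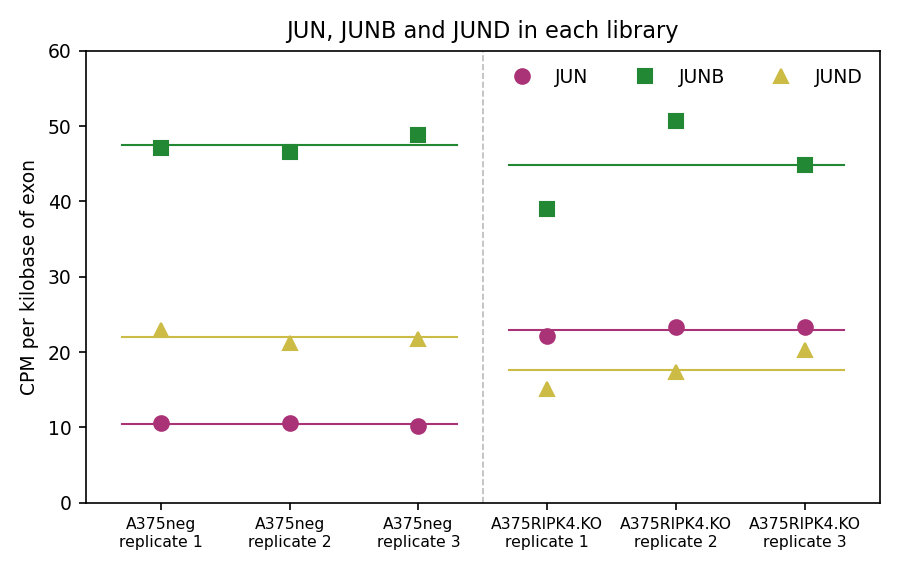
CPM per kilobase of exon of JUN (circles), JUNB (squares) and JUND (triangles) in each library, with lines at the group means. JUN lies below JUND in the 3 A375neg libraries and above it in the 3 A375RIPK4.KO libraries, and JUNB is the highest of the Jun genes in every library.

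Levels of different genes were compared as CPM per kilobase of exon (union of the exons of each gene, GENCODE v29). On this scale the order of the Jun genes in A375neg cells was JUNB (47.5 ± 1.23), JUND (22.0 ± 0.88) and JUN (10.5 ± 0.25). In A375RIPK4.KO cells it was JUNB (44.8 ± 5.83), JUN (22.9 ± 0.68) and JUND (17.6 ± 2.57). JUN and JUND had thus traded places, with no overlap between neighbouring genes in either group. The ratio of JUN to JUND was 0.462, 0.499 and 0.469 in the A375neg libraries and 1.46, 1.34 and 1.15 in the A375RIPK4.KO libraries. JUN made up 13.1, 13.5 and 12.6% of the summed Jun level in A375neg and 29.1, 25.5 and 26.4% in A375RIPK4.KO libraries. This share among the Jun genes was not in the planned set of measures. The groups were separate (13.1 ± 0.47% and 27.0 ± 1.84%, exact permutation test, two-sided p = 0.1, n = 3 each), and 0.1 is the smallest p that 3 against 3 libraries can give.

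Within the Fos genes, FOS alone changed. FOS (chr14:75278828-75282230, plus strand) had 174, 144 and 173 raw counts in A375neg and 79, 84 and 82 in A375RIPK4.KO libraries. The highest knockout library stayed well below the lowest control. FOS fell from 156.9 ± 21.6 to 85.7 ± 2.33 normalised counts (SD, n = 3 each), a log2 fold change of -0.87 (SE 0.17, adjusted p = 0.00811, edgeR). It ranged from -0.98 to -0.79 when each library was left out in turn, with an adjusted p of at most 0.0367 (edgeR). FOS had the lowest counts of the family, at percentile 28.6 of the genes tested by level, and its standard error was the largest of the 8.

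FOSB (chr19:45467996-45475179, plus strand), the Fos gene closest to FOS in its induction by growth factors, had 301, 268 and 279 raw counts in A375neg and 236, 190 and 218 in A375RIPK4.KO libraries. Normalised counts were 270.8 ± 27.6 and 225.8 ± 30.1 (SD, n = 3 each), and the highest knockout library lay above the lowest and below the highest control. The log2 fold change was -0.26 (SE 0.14, adjusted p = 0.266, edgeR). A difference of this size was not resolved by these libraries.

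FOSL1 (chr11:65892049-65900545, minus strand) encodes FRA1, a Fos protein that lacks a strong activation domain, is stabilised by ERK and is abundant in BRAF-mutant melanoma. It was by far the most abundant member, with 10479, 11451 and 11086 raw counts in A375neg and 11184, 10653 and 11241 in A375RIPK4.KO libraries. Normalised counts were 10511 ± 35.7 and 11580 ± 575 (SD, n = 3 each). The groups did not overlap, yet the difference was small and the knockout libraries were more spread than the controls. The log2 fold change was 0.14 (SE 0.06, adjusted p = 0.157, edgeR), and FOSL1 passed only without A375RIPK4.KO replicate 2, at 0.17 (adjusted p = 0.0313, edgeR). FOSL2 (chr2:28392858-28417317, plus strand), which encodes the related FRA2, had 1569, 1709 and 1630 raw counts in A375neg and 1332, 1377 and 1556 in A375RIPK4.KO libraries. Its normalised counts of 1563 ± 15.6 and 1490 ± 76.2 overlapped, and the log2 fold change was -0.07 (SE 0.06, adjusted p = 0.511, edgeR). FOSL2 overlaps the antisense gene FOSL2-AS1, which was not analysed here, and the limit on strand given for JUNB holds for it too.

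ATF3 (chr1:212565407-212620777, plus strand) showed the largest change of the family. It had 439, 428 and 466 raw counts in A375neg and 155, 190 and 172 in A375RIPK4.KO libraries. Each knockout library held fewer counts than any control library. Normalised counts fell from 425.0 ± 26.6 to 180.7 ± 15.5 (SD, n = 3 each), a log2 fold change of -1.23 (SE 0.12, adjusted p = 0.000141, edgeR). It ranged from -1.30 to -1.19 with each library left out in turn, and its size lay at percentile 94.5 of all genes tested. In all, 5 of the 8 members (FOS, FOSL1, JUN, JUND and ATF3) had groups that did not overlap, beside 36.5% of all genes tested.

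**Figure D3:**
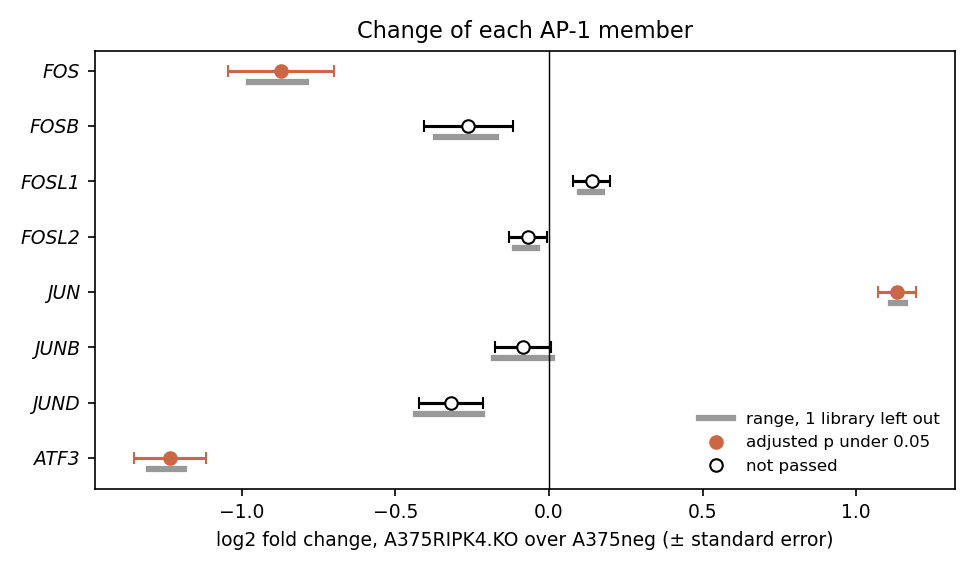
Log2 fold change (A375RIPK4.KO over A375neg) of each AP-1 gene from edgeR, with bars for the standard error and a grey band for the range of values when 1 library is left out. Filled points passed the test (JUN at 1.13, FOS at -0.87 and ATF3 at -1.23), and the band of JUNB alone reaches past 0.

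FOSL1 dominated the family in both groups, and the sum over the 8 genes was slightly higher in each A375RIPK4.KO library. Per kilobase, FOSL1 stood at 227.0 ± 0.77 CPM in A375neg and 250.1 ± 12.4 in A375RIPK4.KO cells (SD, n = 3 each). Below the Jun genes came FOSL2 (8.90 and 8.49), ATF3 (4.29 and 1.82), FOSB (1.99 and 1.66) and FOS (1.97 and 1.08). Neighbours in this order were separate in every library, except FOSB and FOS in A375neg cells and ATF3 and FOSB in A375RIPK4.KO cells, whose ranges overlapped. With the longest transcript as the length, a choice made after seeing the data, FOS ranked above FOSB in A375neg cells (2.96 and 2.92) and the rest of the order was the same. The summed level was 324.6, 322.7 and 324.9 in A375neg and 353.3, 344.2 and 348.0 in A375RIPK4.KO libraries (exact permutation test, two-sided p = 0.1, n = 3 each).

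The share of each member in the summed level was compared within each library. JUN made up 3.23 ± 0.09% of the summed level in A375neg and 6.58 ± 0.27% in A375RIPK4.KO cells, and ATF3 made up 1.32 ± 0.08% and 0.52 ± 0.05% (SD, n = 3 each). The share of JUND was 6.78 ± 0.26% and 5.06 ± 0.77%, that of FOSL2 2.75 ± 0.04% and 2.44 ± 0.13%, that of FOSB 0.613 ± 0.061% and 0.475 ± 0.057%, and that of FOS 0.609 ± 0.082% and 0.310 ± 0.010%. These 6 shares did not overlap between the groups, and each reached the smallest p that the design allows (exact permutation test, two-sided p = 0.1; 0.1375 after adjustment over 11 measures of balance). FOSL1 (70.1 and 71.8%) and JUNB (14.7 and 12.9%) overlapped (p = 0.3 each, exact permutation test), through A375RIPK4.KO replicate 2 alone (69.8 and 14.7%). Without that library neither share overlapped. The differences in percentage points were then 2.69 for FOSL1 and -2.70 for JUNB, in place of 1.70 and -1.78, and without A375RIPK4.KO replicate 1 they were 0.201 and -0.862. The size of a share difference depended on the length used. Without division by length the differences in percentage points were 5.49 for JUN, -1.52 for ATF3, -1.10 for FOSL2, -0.367 for FOSB, -0.458 for FOS and 1.08 for FOSL1, in place of 3.35, -0.80, -0.31, -0.138, -0.299 and 1.70. With the longest transcript that of ATF3 was -1.38, and no share changed direction under either length. A share depends on the other members, so that of FOSL2 was lower although its own level did not pass the test.

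**Figure D4:**
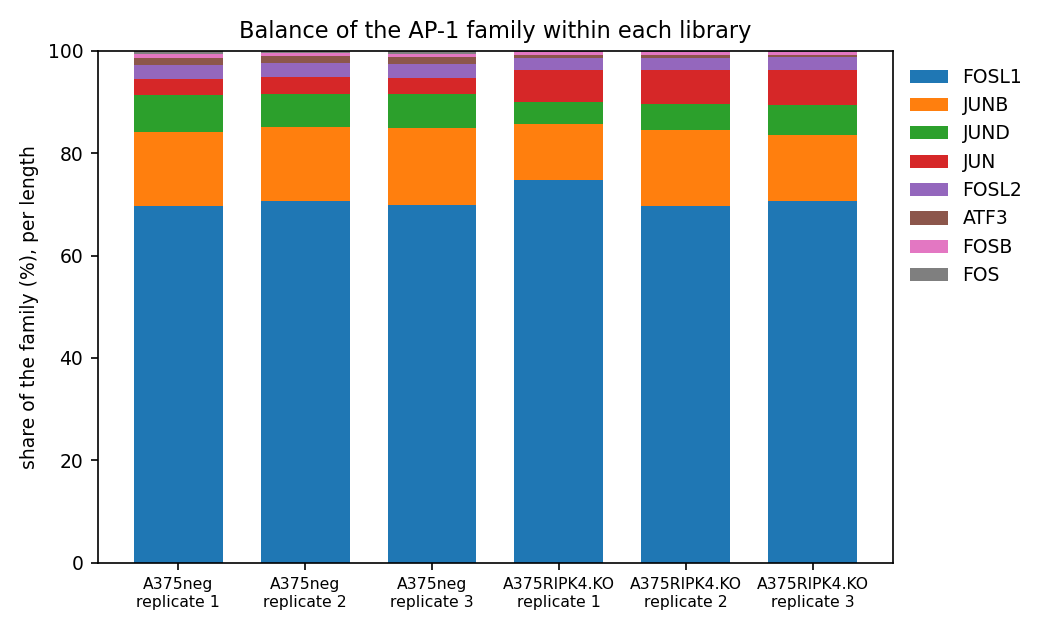
Share (%) of each AP-1 gene in the summed level per kilobase of exon of the 8 genes, stacked for each of the 6 libraries. FOSL1 fills most of each bar (69.7 to 74.7% over the 6 libraries), and the band of JUN is wider in the 3 A375RIPK4.KO libraries (6.58% against 3.23%).

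Members that can pair with each other were also compared within each library, as ratios of their levels. The ratio of JUN to FOS per kilobase was 4.84, 6.36 and 4.93 in A375neg and 20.4, 21.1 and 22.3 in A375RIPK4.KO libraries. The ratio of JUN to ATF3 was 2.45 ± 0.20 and 12.6 ± 0.87, and that of FOSL1 to JUN was 21.7 ± 0.52 and 10.9 ± 0.87 (SD, n = 3 each). None of these ranges overlapped between the groups, and the pairs were chosen with the members' levels known. The ratio of the summed Fos genes to the summed Jun genes gave no such separation, at 1.59 ± 0.03 and 1.62 ± 0.21 on the log2 scale (exact permutation test, two-sided p = 1.0, n = 3 each). That sum is nearly all FOSL1. Without FOSL1, a choice made after seeing the data, the groups did separate, with log2 ratios of -2.60, -2.66 and -2.66 in A375neg and -2.76, -3.09 and -2.92 in A375RIPK4.KO libraries (exact permutation test, two-sided p = 0.1, the smallest possible). The difference in the log2 ratio was then -0.29, in place of 0.03 with FOSL1.

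Other bZIP genes that can pair with Jun or Fos proteins, or bind related sites, changed in 6 of the 18 tested (of 20 on the list). This was 33.3%, beside 16.6% of all genes, with 3 higher and 3 lower and a median log2 fold change of -0.12. Without A375RIPK4.KO replicate 2 the count was 8 (3 higher, 5 lower). CREB5, a CRE-binding partner of JUN, rose from 39.7 ± 7.7 to 277 ± 53 normalised counts (SD, n = 3 each; log2 fold change 2.80, SE 0.22, adjusted p = 4.24e-05, edgeR). BATF3, which pairs with Jun proteins, rose by 0.95 on the log2 scale (SE 0.16), and the small Maf gene MAFK rose by 0.38 (SE 0.06). The large Maf gene MAF fell from 290 ± 53 to 62.1 ± 9.98 normalised counts (log2 fold change -2.22, SE 0.20, adjusted p = 8.91e-05, edgeR). NFE2L3 was at -0.25 (SE 0.07, adjusted p = 0.0433, edgeR), a call that was lost without any single library other than A375RIPK4.KO replicate 2, and with low counts kept (adjusted p = 0.0611, edgeR). NFE2L1, the most abundant of the list, was at -0.07 (adjusted p = 0.546, edgeR), and JDP2, ATF2 and ATF7, classical Jun partners named after their values were seen, did not pass (adjusted p = 0.379, 0.589 and 0.156, edgeR).

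Immediate early genes, which growth factors induce together with FOS and JUN, changed in 14 of 23 tested (of 24), and 11 of the 14 were lower. The share was 60.9%, beside 16.6% of all genes tested, with a median log2 fold change of -0.29, beside 0 over all genes. Without A375RIPK4.KO replicate 2 the count was 14 as well, with 4 higher and 10 lower. The zinc finger factor EGR1 had 352, 342 and 332 raw counts in A375neg and 118, 81 and 123 in A375RIPK4.KO libraries (log2 fold change -1.54, SE 0.18, adjusted p = 0.000409, edgeR). Its relative EGR3 fell by 1.11 on the log2 scale (SE 0.16), the orphan nuclear receptor NR4A2 fell by 1.98 (SE 0.25) and KLF4 fell by 1.39 (SE 0.13). DUSP4, a phosphatase that dampens MAPK signalling, fell from 11458 ± 371 to 3888 ± 14.5 normalised counts (SD, n = 3 each; log2 fold change -1.56, SE 0.06, adjusted p = 5.57e-07, edgeR). MCL1, the most abundant of the list, was at -0.25 (adjusted p = 0.0204, edgeR) and lost its call without any single A375neg library or A375RIPK4.KO replicate 3. JUN, which rose, thus differed in direction from the 11 that fell, whereas FOS and ATF3 fell as they did.

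The 3 immediate early genes that rose were CCN2, CCN1 and DUSP5. CCN2, which encodes a matricellular growth factor, had 2736, 2612 and 2540 raw counts in A375neg and 8256, 7753 and 8705 in A375RIPK4.KO libraries (log2 fold change 1.78, SE 0.08, adjusted p = 1.18e-06, edgeR). CCN1, its relative, was at 0.94 and the nuclear ERK phosphatase DUSP5 at 0.66 on the log2 scale, and both are named because the count is small. EGR3, NR4A1 and KLF4 are also among the genes that the study picked from these libraries, so they are not independent evidence of the list's direction.

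Genes of the kinases upstream of AP-1 and of the factors that act at the FOS promoter changed in 3 of 20 tested (of 22), 2 higher and 1 lower. The share of 15% is near the 16.6% of all genes tested and is no result about this list, and the median log2 fold change was -0.01. The ribosomal S6 kinase gene RPS6KA2 had 99, 124 and 125 raw counts in A375neg and 187, 247 and 210 in A375RIPK4.KO libraries (log2 fold change 1.02, SE 0.16, adjusted p = 0.00234, edgeR). MAPKAPK2, a kinase downstream of p38, fell by 0.36 on the log2 scale (SE 0.07, adjusted p = 0.00701, edgeR). SRF, the serum response factor, was at 0.27 (SE 0.07, adjusted p = 0.0320, edgeR), a call that was lost without any single A375neg library or A375RIPK4.KO replicate 3. ELK3, a partner of SRF and the gene with the highest counts of the list, was at 0.22 and did not pass (adjusted p = 0.0630, edgeR). Of the ERK cascade itself, BRAF, MAP2K1, MAP2K2 and MAPK3, also named after their values were seen, did not pass (adjusted p = 0.269, 0.564, 0.417 and 0.721, edgeR), and mRNA levels do not report kinase activity. Without A375RIPK4.KO replicate 2 the count was 6 (5 higher, 1 lower), in a fit where 2952 of all 14931 genes tested changed.

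Genes known as AP-1 targets in other settings changed in 17 of 28 tested (of 30; 60.7%, beside 16.6% of all genes tested), 6 higher and 11 lower, with a median log2 fold change of -0.22. Among the matrix metalloproteinase genes both directions occurred. The collagenase gene MMP1 had 288, 259 and 210 raw counts in A375neg and 713, 818 and 674 in A375RIPK4.KO libraries (log2 fold change 1.68, SE 0.14, adjusted p = 7.07e-05, edgeR). The stromelysin gene MMP10 also rose (log2 fold change 2.54, SE 0.29), whereas the gelatinase gene MMP9, named after its values were seen, was at -1.66 (SE 0.19, adjusted p = 0.000429, edgeR). SPP1, which encodes osteopontin, rose by 2.86 on the log2 scale (SE 0.09).

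Among the targets that fell was AREG, which encodes the EGF receptor ligand amphiregulin, with 564, 644 and 652 raw counts in A375neg and 101, 126 and 141 in A375RIPK4.KO libraries (log2 fold change -2.20, SE 0.12, adjusted p = 5.85e-06, edgeR). PTGS2, which encodes cyclooxygenase-2, had 73, 57 and 118 raw counts in A375neg and 29, 14 and 21 in A375RIPK4.KO libraries (log2 fold change -1.81, SE 0.37, adjusted p = 0.00988, edgeR). HMGA1, the most abundant of the list, was at 0.11 and did not pass (adjusted p = 0.420, edgeR). MMP9, PTGS2, SPP1, CD44 and ITGA2 are also among genes that the study picked from these cells. With a fold change of at least 1.5 required as well, 11 of the 28 changed, 5 higher and 6 lower, beside 9.04% of all genes tested. Without A375RIPK4.KO replicate 2 the count at an adjusted p under 0.05 was 20 (8 higher, 12 lower). These counts describe the list, and whether it stands apart from other genes was not tested.

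**Figure D5:**
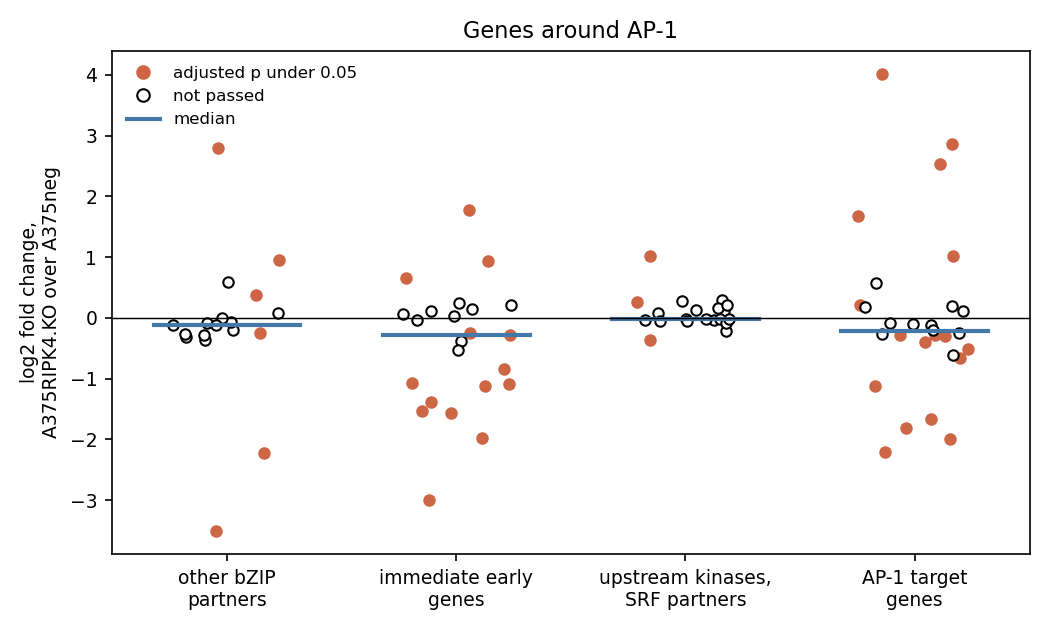
Log2 fold change (A375RIPK4.KO over A375neg) of every tested gene of 4 lists around AP-1, with filled points for an adjusted p under 0.05 and a blue line at the median of each list (-0.12, -0.29, -0.01 and -0.22 from left to right). Among the upstream kinases and SRF partners the points that passed include RPS6KA2 at 1.02 and MAPKAPK2 at -0.36, and the target genes spread in both directions.

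The genes whose pattern was most like that of a changed member were sought among 10726 protein-coding genes, each with 50 counts or more on average, by Pearson's r of log2 CPM over the 6 libraries. For JUN these were HTRA1 (r = 0.9989), GLUL (0.9988) and RARB (0.9987). HTRA1, a secreted serine protease gene, rose from 145 ± 4.08 to 337 ± 2.87 normalised counts, GLUL, the glutamine synthetase gene, rose from 154 ± 10.6 to 783 ± 72.4, and RARB, a retinoic acid receptor gene, rose from 11.8 ± 2.89 to 517 ± 15.5 (SD, n = 3 each). For ATF3 they included KYNU (r = 0.9982) and BCL6 (0.9978), the genes of the tryptophan pathway enzyme kynureninase and of a transcriptional repressor. For FOS they were MAST4 (0.9966), INSIG1 (0.9955) and AGMO (0.993), the genes of a kinase, of a regulator of sterol synthesis and of an ether lipid enzyme. The 6 points fall into the 2 groups, so such values mainly mark genes that differed between them. They are a description with no test, and r was over 0.95 for 513 genes with JUN, 485 with ATF3 and 274 with FOS.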

How the data were processed

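Poly(A)-enriched, strand-specific libraries of A375neg and A375RIPK4.KO cells (3 each) were sequenced in paired-end mode and the data were prepared by an external provider. The submitters' processing notes name cutadapt, FastQC, HISAT2, HTSeq, DESeq2 and the build GRCh38.p13, with no versions or roles. The annotation release and the strand setting of the counting are not given in the sources used here. The authors deposited raw counts per gene, which were used here. The deposited table also holds normalised counts (a signal scaled by 1 size factor per library by the authors), and the fold change ratio, its log2 value with a standard error, the Wald score and the p-value of the authors' own comparison, none of which were used.

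The groups were tested on the counts with edgeR 4.0.16 in R 4.3.3 (TMM, filterByExpr, quasi-likelihood F-test without a block). Standard errors were obtained by dividing the absolute log2 fold change by the root of F. Single values per library were compared by exact permutation tests (Python 3.11.15, scipy 1.17.1). Levels of different genes were set per kilobase of GENCODE v29 exons, and promoters were taken from RefSeq. Alternatives were DESeq2 1.42.0, edgeR with the DESeq2 size factors, edgeR with low counts kept, a replicate block, a 1.5-fold minimum, and fits without each single library. The edgeR and DESeq2 fits over all 6 libraries were tested on simulated counts, and the other steps were not.

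The members, the gene lists and the rule for named genes were chosen with earlier results of these data known. The rule names the 8 members and RIPK4. In each other list it names up to 6 genes with the largest change among those that passed and had a mean of at least 50 counts, and the gene with the highest mean count. For each changed member it names the 3 genes most like it. Other genes, such as single list members beside a count or a comparison, were named after their values were seen. A few genes that the rule covers are left out of the text. Reads and proteins were not analysed here.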

Additional observations from a re-analysis of the deposited data

How the results depend on the processing

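JUN, FOS and ATF3 passed the test, in the same direction, in every one of the 10 other fits (DESeq2, its size factors, no filter, the replicate block and the 6 fits without 1 library). The count of changed members was 3 in each of them, except without A375RIPK4.KO replicate 2 (FOSL1 added) and without A375RIPK4.KO replicate 3 (JUND added), where it was 4. With each library left out in turn, JUNB ranged from -0.177 to 0.009 on the log2 scale, and it was 0.009 without A375RIPK4.KO replicate 1. The difference in the log2 Fos to Jun ratio was 0.032. It was -0.15 without division by length and -0.287 without FOSL1, and it ranged from -0.085 to 0.112 with each library left out, at -0.085 without A375RIPK4.KO replicate 1. The groups overlapped without division by length (exact permutation p = 0.4) and separated without FOSL1 (exact permutation p = 0.1, the smallest possible). The cause of these reversals was not tested.

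The count of changed upstream kinases and SRF partners (3) ranged from 2 to 6 with each library left out (6 without A375RIPK4.KO replicate 2), and was 1 with a minimum of 1.5-fold. That of AP-1 targets (17) was 11 with that minimum. Over all genes, 2403 changed, and 1526 to 2952 did with each library left out (1584 without A375neg replicate 1 and 1526 without A375neg replicate 2). ELK3, which did not pass, passed with DESeq2 (adjusted p = 0.0270), with the block (0.0301, edgeR) and without A375RIPK4.KO replicate 2 (0.00769, edgeR). Replicate numbers are shared by the groups, but same-numbered libraries did not deviate together (r of deviations 0.0823, 0.0357 and -0.0119), so they were not taken as pairs. With the replicate block, 2549 genes changed in place of 2403, and 3 members. FOS had the lowest counts of the members, 79 to 174 per library.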
